A study of Arabidopsis thaliana with 20 samples.

Results

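DRM2 and CMT3 are plant DNA methyltransferases, and mutants in one or the other differ from wild type at regions that overlap only in part. The description below covers the genomic bases that lie both in a window around a differentially methylated region (DMR) of the drm2 mutant and in a window around a DMR of the cmt3 mutant, whatever the cytosine context of either DMR. A base was taken where a deposited drm2 window and a deposited cmt3 window both covered it, and wild-type values came from the matching wild-type tables. This gave 1121813 bases, or 1.12 Mb, in 1137 separate runs of 49 to 3449 bp (median 1099 bp). They made up 46.4% of the 2.42 Mb in cmt3 windows and 10.1% of the 11.1 Mb in drm2 windows, out of 12.4 Mb in windows of either mutant.

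The study asked how DNA methylation relates to the positions of nucleosomes in Arabidopsis thaliana. The 6 libraries used here were MNase-H3-ChIP-seq libraries from mature leaves of plants aged 3.5 weeks, with 2 libraries each of wild-type Col-0, of drm2 and of cmt3, all in the Columbia background. In this assay micrococcal nuclease cuts the DNA between nucleosomes, and fragments bound by an antibody against histone H3 are sequenced, so coverage shows where nucleosomes protect DNA. The labels name the mutants as drm2 and cmt3, with no allele number, and do not say how many plants went into a library. No drm2 or cmt3 window reached the DRM2 or the CMT3 gene, so H3 coverage gives no check of the genotypes.

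Plants methylate cytosines in 3 sequence contexts, CG, CHG and CHH, where H is any base but G. MET1 copies CG methylation after replication. CMT3 is guided by methylation of histone H3 at lysine 9 and maintains CHG methylation, mainly over transposons. DRM2 is recruited through RNA polymerase V and small RNAs, in RNA-directed DNA methylation, and places methylation in all contexts, with a leading part in CHH methylation at the edges of transposons and in short transposons of the chromosome arms.

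The lists of DMRs of both mutants differed in size and context. The drm2 list held 15257 CG, 2145 CHG and 6480 CHH DMRs, and the cmt3 list held 189 CG, 2960 CHG and 1976 CHH DMRs, each 100 bp long on a 50 bp grid. All 189 cmt3 CG DMRs (100%) were also drm2 CG DMRs, at the same position, and they were 1.24% of the drm2 CG list. Among CHG DMRs, 473 had the same position in both lists, which was 22.1% of the drm2 list and 16.0% of the cmt3 list. Among CHH DMRs there were 273, or 4.21% of the drm2 and 13.8% of the cmt3 list. Across contexts, 289 positions were drm2 CG DMRs and cmt3 CHG DMRs at once, whereas 17 were drm2 CHH and cmt3 CHG DMRs. Over any context, 1044 positions were in both lists, out of 22166 drm2 and 4904 cmt3 positions. The direction of the methylation change was not given in the sources used here.

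Each table holds 1 profile for a genotype, in which the authors combined both libraries, so no replicate spread can be computed and no test between genotypes was run. The spread over the 5 chromosomes is given in its place as a description. Mean coverage over the shared bases was 12.5 fragments per base in Col-0, 15.7 in drm2 and 8.18 in cmt3, and 30.8%, 35.8% and 41.0% of the bases had no fragment. The shared bases held 21322 full bins of 50 bp, of which 15746 lay in no drm2 or cmt3 DMR. Over those, summed coverage relative to Col-0 was 1.32 in drm2 and 0.664 in cmt3, so the drm2 profile was 1.98 times as deep as the cmt3 profile. Unless stated otherwise, mutant coverage below is divided by these factors. Bins were compared where Col-0 had at least 5 fragments per base, which 9838 bins (46.1%) in 900 runs did. Ratios are log2((drm2 + 1)/(cmt3 + 1)) of scaled coverage. Neighbouring bins share fragments, and their number is not a number of independent observations.

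Outside all DMRs, the ratio of drm2 to cmt3 depended on how much H3 Col-0 had in the bin. Where Col-0 had 5 to 10 fragments per base, drm2 averaged 11.1 and cmt3 6.56, and the median log2 ratio was 0.69, with 0.63 to 0.82 on the single chromosomes. The median was 0.30 at 10 to 20, -0.18 at 20 to 40 and -0.40 at 40 or more fragments, where Col-0 averaged 55.9, drm2 39.9 and cmt3 53.3. In these shared bins the slope came mostly from drm2. Its median against Col-0 went from 0.44 in the lowest to -0.48 in the highest of these 4 ranges, while that of cmt3 was -0.31, -0.00, 0.09 and -0.09. Among bins with at least 5 Col-0 fragments per base, coverage thus varied less in drm2. Below that, outside DMRs, the drm2 median was again under Col-0, at -0.12 where Col-0 had 2 to 5 fragments and -0.72 where it had 1 to 2. A like slope stood in the rest of the drm2 windows, outside shared bases and DMRs, where, with the factor of the shared bases, the drm2 medians against Col-0 were 0.47, 0.35, -0.14 and -0.52. In the rest of the cmt3 windows the cmt3 medians with the shared factor were -0.76, -0.34, 0.03 and -0.08. Scaled over those bins themselves, by 1.26 for drm2 and 0.564 for cmt3, they were 0.52, 0.41, -0.08 and -0.46 in drm2, and -0.57, -0.12, 0.25 and 0.15 in cmt3, so the level of the cmt3 values depends on the factor. With either factor the cmt3 medians there rose from 5 to 10 up to 20 to 40 Col-0 fragments, as they did in the shared bins. Over these ranges cmt3 thus had a slope of its own in both sets of bins, opposite in sign to that of drm2. The part of the difference in depth between these profiles was not tested.

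Because classes of bins differed in Col-0 coverage, each was read against bins outside DMRs in the same range of Col-0 coverage. Bins in a cmt3 DMR but no drm2 DMR stood apart most. Over the 759 such bins, in 301 runs, mean coverage was 19.7 in Col-0, 21.9 in drm2 and 15.5 in cmt3. The median log2 ratio of drm2 to cmt3 was 1.01, with 0.84 to 1.11 on the 5 chromosomes, against 0.03 (-0.03 to 0.12) over the 5968 bins outside DMRs. Against Col-0, drm2 had a median of 0.23 and cmt3 one of -0.58 in these bins. Both values use the same Col-0 libraries.

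In 380 of the 759 cmt3 DMR bins (50.1%) drm2 was at least 2-fold above cmt3, beside 19.5% of all shared bins that passed the minimum. In 13 of them (1.71%) cmt3 was at least 2-fold above drm2, beside 4.38% of all shared bins. The 1907 bins in a drm2 DMR only differed on the first count: 154 (8.08%) had drm2 at least 2-fold higher and 78 (4.09%) had cmt3 at least 2-fold higher. These drm2 DMR bins had a mean Col-0 coverage of 36.5 against 22.8 outside DMRs; at 40 or more Col-0 fragments per base, at most 0.247% of the bins of any class had drm2 2-fold higher. Of the 1204 bins in DMRs of both mutants, 17.8% and 2.66% passed 2-fold in these directions.

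**Figure D1:**
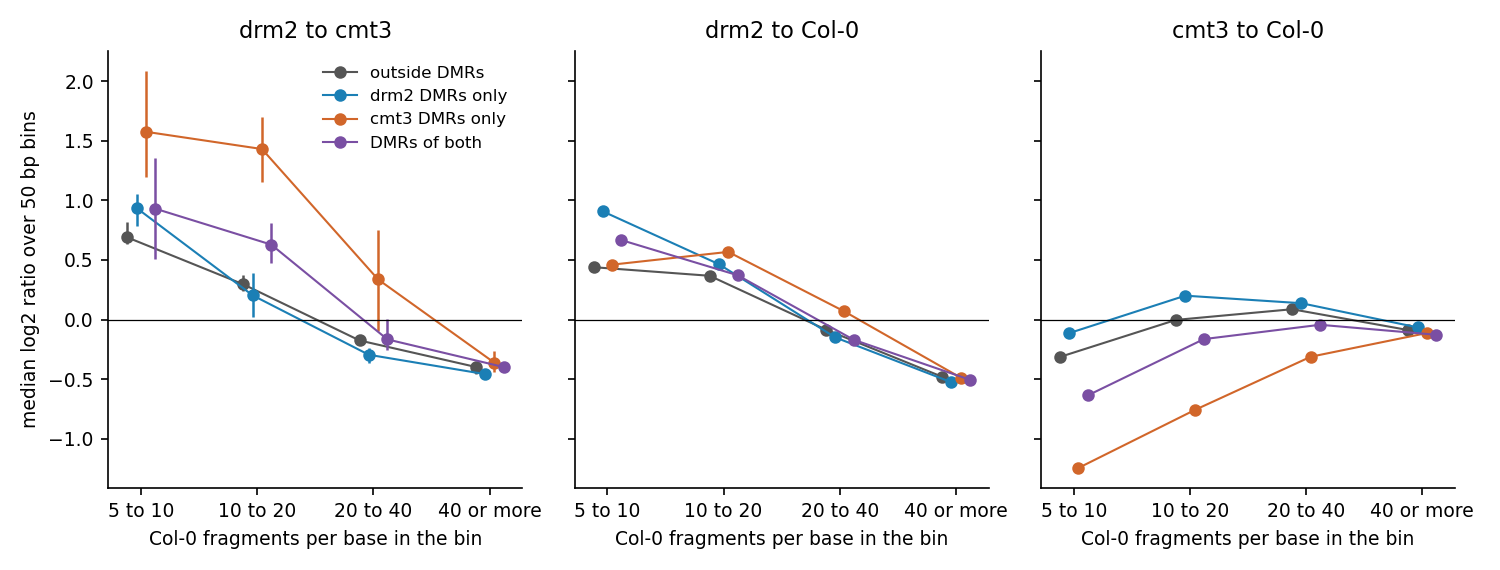
Median log2 ratio over 50 bp bins (y) by Col-0 coverage of the bin in fragments per base (x), for drm2 to cmt3, drm2 to Col-0 and cmt3 to Col-0. Colours are the 4 classes of bins, and vertical lines in the left panel span the medians of the 5 chromosomes. In the right panel cmt3 DMR bins lie lowest up to 40 fragments per base, while in the middle panel all classes go from above to below 0.

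At equal Col-0 coverage the excess of drm2 over cmt3 in cmt3 DMR bins was present in the 3 lower ranges on every chromosome. At 5 to 10 fragments their median ratio was 1.58, which is 0.89 above outside bins, with differences of 0.53 to 1.44 on the single chromosomes. At 10 to 20 it was 1.43, or 1.13 above (0.87 to 1.33), and at 20 to 40 it was 0.34, or 0.51 above (0.11 to 0.97). At 40 or more it was -0.36 and differed from outside bins by 0.04 (-0.05 to 0.18), with 99 bins. Averaged over these ranges with the weights of the class, the difference was 0.77, and 0.71 to 0.87 on the chromosomes. In the range of 10 to 20 fragments Col-0 averaged 13.8, drm2 21.0 and cmt3 8.87, whereas outside bins averaged 14.1, 18.9 and 15.1. Against Col-0 the medians in that range were 0.57 in drm2, beside 0.37 outside DMRs, and -0.76 in cmt3, beside -0.00, so most of the gap was on the cmt3 side.

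Bins in drm2 DMRs only showed no such gap. Their average difference from outside bins at equal Col-0 coverage was -0.04, with -0.08 to 0.04 on the chromosomes. It was 0.25 at 5 to 10 fragments (0.13 to 0.38), where drm2 had a median of 0.91 and cmt3 one of -0.11 against Col-0, beside 0.44 and -0.31 outside DMRs. It was -0.12 at 20 to 40 (-0.15 to -0.06). The plain median of this class was -0.29, with -0.30 for drm2 and 0.01 for cmt3 against Col-0. On average, bins in DMRs of both mutants lay between, 0.11 above outside bins (0.07 to 0.20). They were 0.24 above at 5 to 10 fragments (-0.12 to 0.66), close to the 0.25 of drm2 DMR bins. At 10 to 20 fragments they were 0.33 above (0.24 to 0.44), and at 20 to 40 they were 0.01 above. Their plain median was -0.09, with 26.3 fragments per base in drm2 and 28.8 in cmt3.

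The cmt3 DMR bins are given by context. The 618 bins in cmt3 CHG DMRs, the context CMT3 maintains, had a median ratio of 0.82 and were 0.65 above outside bins of like Col-0 coverage (0.53 to 0.79 on the chromosomes). Against Col-0 their medians were 0.24 in drm2 and -0.38 in cmt3. The 179 bins in cmt3 CHH DMRs, from 57 runs, had a median of 1.77 and were 1.30 above outside bins (0.86 to 1.75). There Col-0 averaged 12.4, drm2 14.6 and cmt3 4.74 fragments per base, and 20.1% of the bins held no cmt3 fragment, against 4.47% with no drm2 fragment. Each average is weighted by the number of its own bins in each range, and Col-0 coverage was lower in CHH. Within 5 to 10 Col-0 fragments, CHG bins were 0.80 above outside bins (0.28 to 1.34) and CHH bins 1.02 above (0.08 to 1.83), and these ranges overlap. Within 10 to 20 fragments the differences were 0.996 (0.80 to 1.22, 179 bins) and 1.72 (58 bins, 1.41 to 1.71 on the 4 chromosomes with at least 5 of them). The contexts were not tested against each other, and some bins carry a DMR of each and count in both groups.

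The drm2 DMR bins with no cmt3 DMR were mainly CG bins (1700, difference from outside bins -0.04) and CHG bins (457, -0.05, below outside bins on each chromosome, -0.18 to -0.00). The shared bases held 191 bins in drm2 CHH DMRs without a cmt3 DMR, with a median Col-0 coverage of 0.800, and 47 of them, in 26 runs, passed the minimum. Their median ratio was -0.28 and they were 0.62 below outside bins at equal Col-0 coverage. Only 2 chromosomes had at least 10 such bins, with -0.32 and 0.18. Over all 5 chromosomes the difference ran from -1.98 to 0.18. It was -1.21 to -0.40 without each chromosome in turn, and -0.88 to -0.03 over the other settings run. These bins are few on most chromosomes, and no direction is drawn from them. Against Col-0 their medians were -0.57 in drm2 and -0.16 in cmt3. In 16 of these 47 bins (34.0%) cmt3 was at least 2-fold above drm2, and in 8 (17.0%) drm2 was at least 2-fold above cmt3.

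In bins that both mutants list in CHH context, mean H3 was below Col-0 in both. The 83 such bins that passed the minimum, of 452 in all, came from 41 runs and averaged 11.5 fragments per base in Col-0, 7.81 in drm2 and 6.69 in cmt3. Their medians against Col-0 were -0.81 in drm2 and -1.61 in cmt3. A minimum on Col-0 coverage by itself favours values below Col-0 in both mutants. Within 5 to 10 Col-0 fragments (53 bins) the medians were -2.09 and -2.40, beside 0.44 and -0.31 in outside bins, and within 10 to 20 (21 bins) 0.03 and -1.41, beside 0.37 and -0.00. Over the 83 bins the ratio of drm2 to cmt3 had a median of 0.16. Its difference from outside bins was -0.30, with -1.18 to 0.86 on the 4 chromosomes that had at least 10 such bins. Empty bins were common at 5 to 10 Col-0 fragments. Of 54 bins there in a drm2 CHH DMR and any cmt3 DMR, 44.4% held no cmt3 fragment and 27.8% no drm2 fragment. Outside DMRs these shares were 7.17% and 2.10%. A bin empty in both mutants has a ratio of 0, which limits what this ratio shows. Bins that both list in CHG context (696, in 273 runs) had medians against Col-0 of -0.23 and -0.09, and those in CG context (176, in 78 runs) -0.25 and -0.33.

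The gap at cmt3 DMRs was largest inside them among the distances compared. For bins with 5 to 40 Col-0 fragments per base, and leaving out those in drm2 DMRs, the ratio was compared with that of bins 300 bp or more from any cmt3 DMR. Bins whose centre lay inside a cmt3 DMR were 1.03 above the distant bins (0.86 to 1.27 on the chromosomes), those within 50 bp of its edge 0.47 above (0.26 to 0.60), those at 50 to 100 bp 0.25 above (0.05 to 0.44) those at 100 to 200 bp 0.11 above (-0.11 to 0.26) and those at 200 to 300 bp 0.12 above (0.02 to 0.24). Mean cmt3 coverage was 9.80 inside, 12.9 within 50 bp, 14.8 at 50 to 100 bp and 17.1 at 300 to 600 bp. Mean drm2 coverage was 19.0, 17.5, 17.5 and 18.0 in the same bins, and that of Col-0 14.1, 14.4, 15.0 and 15.3. The gradient was thus mainly in cmt3, and most of it lay within 100 bp of the DMR, with a small difference left at 200 to 300 bp. Around drm2 DMRs, without bins in cmt3 DMRs, the differences were -0.13 inside (-0.17 to -0.05), -0.16 within 50 bp and -0.17 at 50 to 100 bp. They were -0.06 at 100 to 200 bp (-0.18 to 0.02) and -0.11 at 200 to 300 bp (-0.33 to 0.03), the latter close to the value inside.

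**Figure D2:**
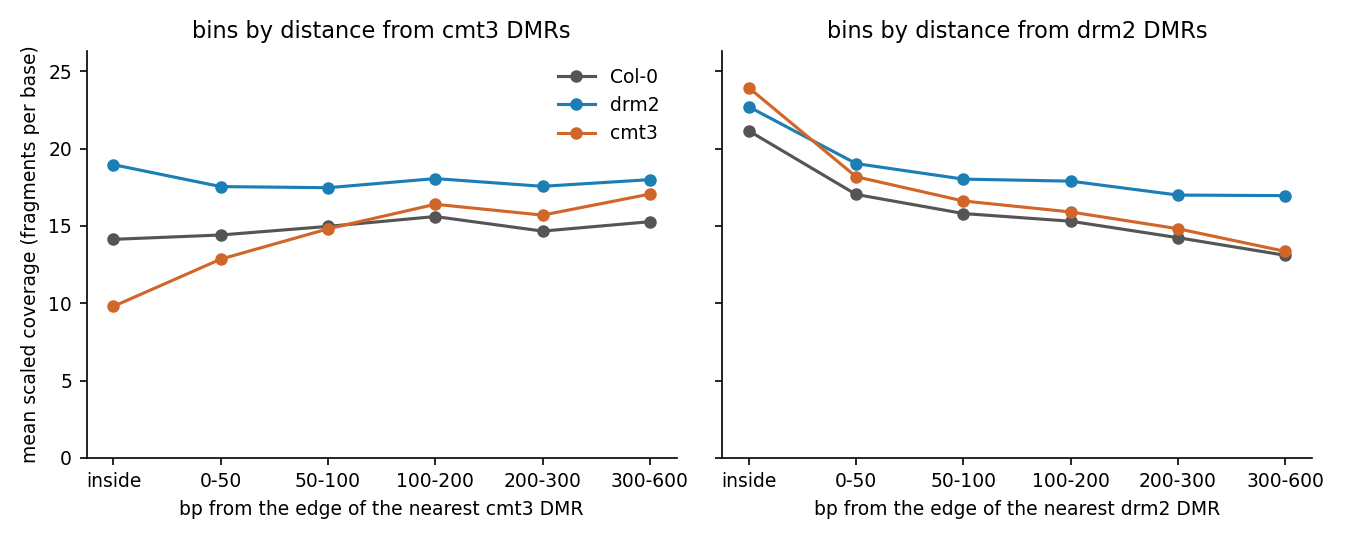
Mean scaled coverage in fragments per base (y) of bins with 5 to 40 Col-0 fragments per base, by distance from the edge of the nearest cmt3 DMR (left) or drm2 DMR (right) in bp (x). On the left cmt3 goes from 9.80 inside DMRs to 17.1 at 300 to 600 bp while drm2 stays between 17.5 and 19.0. On the right all 3 genotypes go down together with distance.

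DMRs at the same position in both lists could be viewed in full, since all 1044 have 1 kb of shared bases around them. The 189 CG DMRs of both lists, from 141 runs, sat on a sharp H3 peak: Col-0 averaged 16.4 fragments per base over the DMR and 3.55 at 300 to 500 bp on either side. The peak stood at 15.3 in drm2 and 13.2 in cmt3 and its ratio to the flanks was 4.63 in Col-0, 4.27 in drm2 and 3.96 in cmt3. At the 473 CHG DMRs, from 318 runs, the DMR averaged 28.2 in Col-0, 24.0 in drm2 and 26.8 in cmt3. Their flanks averaged 19.1, 16.6 and 19.1, so that drm2 was below the others over the whole kilobase. Well-covered bins outside DMRs also had less drm2 than cmt3. Their median log2 ratio was -0.18 at 20 to 40 and -0.40 at 40 or more Col-0 fragments. At equal Col-0 coverage, bins that both list in CHG context were 0.10 above outside bins in that ratio (0.03 to 0.18 on the chromosomes). At the 273 CHH DMRs, from 164 runs, coverage was low, at 3.11 in Col-0, 1.90 in drm2 and 1.74 in cmt3 over the DMR. In Col-0 the DMR was 1.40 times its flanks, in drm2 0.800 times and in cmt3 0.836 times.

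**Figure D3:**
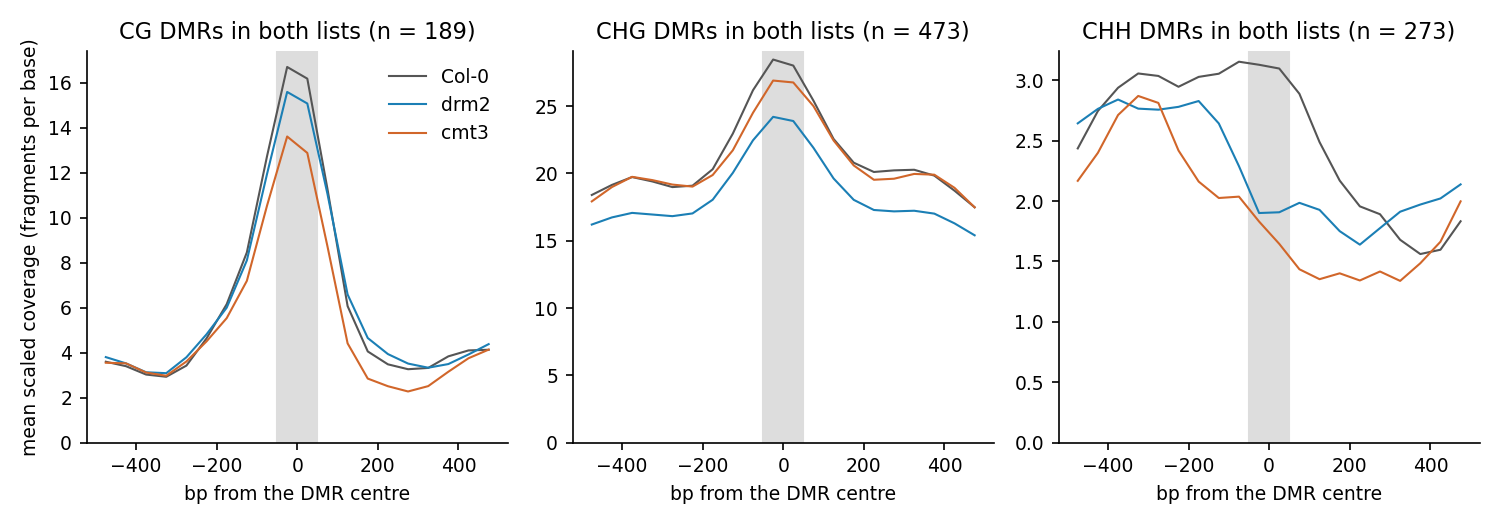
Mean scaled coverage in fragments per base (y) by distance from the DMR centre in bp (x), at DMRs of both lists in CG (n = 189), CHG (n = 473) and CHH (n = 273) context. Grey marks the 100 bp DMR, and the y axes differ between panels. Both mutants are below Col-0 over the CHH DMRs, with 1.90 and 1.74 against 3.11.

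Counted by DMR, 650 of the 1044 had at least 5 Col-0 fragments per base. Both mutants were below Col-0 in 287 of them, drm2 alone in 140, cmt3 alone in 123 and neither in 100. In CHH context both were below in 39 of 56, in CG context in 58 of 103 and in CHG context in 156 of 389. The median ratio of drm2 to cmt3 was 0.27 in CHH, 0.12 in CG and -0.20 in CHG context. Both comparisons use the same Col-0 libraries, and the minimum on Col-0 coverage favours values below Col-0 in both mutants. No such count was made outside DMRs, so the counts do not show that values below Col-0 are particular to DMRs. These DMRs overlap their neighbours, and their counts are a description.

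By place, 39.9% of the shared bins lay in the gene-poor part of the chromosomes, taken as 33 blocks of 500 kb (16.5 Mb) in which annotated pseudogenes are at least as many as protein-coding genes. The share was 54.1% for drm2 DMR bins, 36.5% for cmt3 DMR bins and 34.2% for bins in DMRs of both. The excess of drm2 over cmt3 in cmt3 DMR bins, read against outside bins of the same blocks and the same Col-0 coverage, was 0.98 in the gene-rich blocks (0.87 to 1.08 on the chromosomes, 443 bins) and 0.50 in the gene-poor blocks (0.27 to 0.74, 316 bins). These averages are weighted by the number of their own bins in each range, and Col-0 coverage was higher in the gene-poor blocks. Range by range the gene-rich and gene-poor differences were 0.94 (0.70 to 1.51) and 0.70 (0.30 to 1.28) at 5 to 10 fragments, 1.33 (1.15 to 1.50) and 0.92 (0.47 to 1.31) at 10 to 20, and 0.85 (0.23 to 1.57) and 0.16 (0.00 to 0.77) at 20 to 40. In each of these the chromosomes overlapped, and the places were not tested against each other. In the gene-rich blocks cmt3 DMR bins averaged 16.6 in Col-0, 18.5 in drm2 and 10.9 in cmt3, and in the gene-poor blocks 24.1, 26.7 and 22.0. For drm2 DMR bins the differences were 0.02 and -0.10.

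Of all shared bins, 46.2% had their centre in a pseudogene, 17.6% in a protein-coding gene and 36.1% in neither. The pseudogenes of this annotation seem to include transposable element genes, which were not separated here, in the gene-poor blocks or in the bins named below. The share in pseudogenes was 65.8% for drm2 DMR bins, 67.5% for cmt3 DMR bins and 41.6% outside DMRs. In cmt3 DMR bins the difference from outside bins of the same kind was 0.69 in pseudogenes (0.57 to 0.81, 592 bins), 0.72 outside genes (0.38 to 1.36, 97 bins) and 1.07 in protein-coding genes (70 bins in 26 runs, 0.38 to 1.45 on the 3 chromosomes with at least 10 such bins).

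Averaged over whole runs, drm2 and cmt3 differed less. Of 962 runs with at least 10 bins, 575 had at least 5 Col-0 fragments per base. Their ratios had a median of -0.07, with quartiles of -0.31 and 0.29 and extremes of -1.70 and 2.46. In 34 runs (5.91%) drm2 was at least 2-fold above cmt3, and in 2 (0.348%) cmt3 was 2-fold above drm2. Runs with more cmt3 than drm2 DMR bins (121) had a median of 0.34 and held 25 of the 34. Runs with fewer (335) had a median of -0.19 and held 3, and runs with as many (119) had a median of -0.00 and held 6. These groups of runs were not matched for Col-0 coverage, on which the ratio depends. The part of coverage in their differences was not tested.

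**Figure D4:**
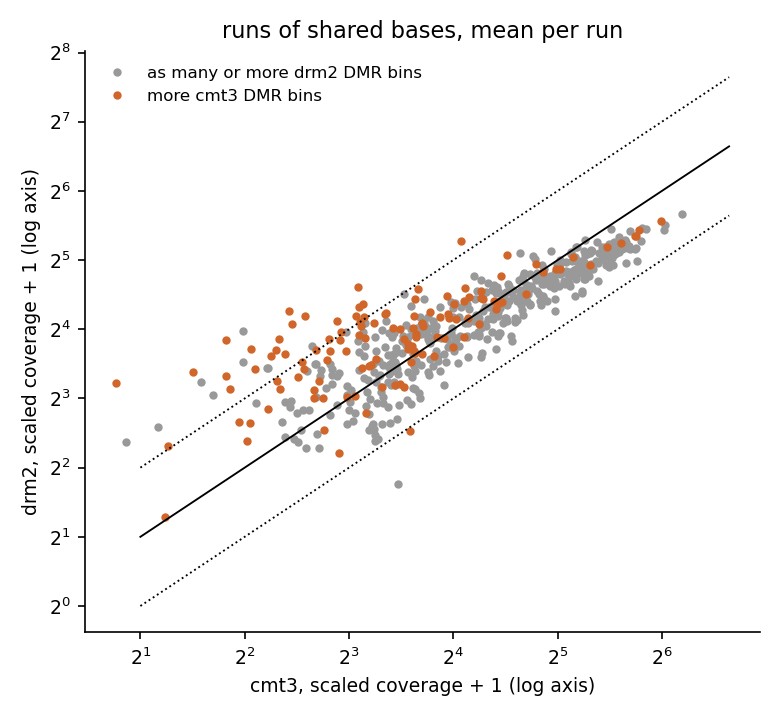
Mean scaled coverage + 1 per run of shared bases in drm2 (y) and cmt3 (x), both on log axes, for the 575 runs with at least 10 bins and at least 5 Col-0 fragments per base. The solid line marks equal coverage and the dotted lines 2-fold differences. Runs with more cmt3 than drm2 DMR bins (orange) make up 25 of the 34 above the upper dotted line. Runs were not matched for Col-0 coverage.

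Single bins show what these ratios look like in fragments. They were chosen by rule as the highest and lowest ratios of each class among bins with at least 10 fragments per base in Col-0 and on average over the mutants, so their size is a description. Coordinates are those of the files (TAIR10), and genes are from RefSeq. With equal scaled coverage, 66.5% of the drm2 and cmt3 fragments over a base would be from drm2. Intervals are exact Clopper-Pearson 95% intervals on that share and cover counting error only.

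The highest ratio of the cmt3 DMR bins was at chr1:17024851-17024900, in a cmt3 CHG DMR within the pseudogene AT1G45020. Col-0 had 14.5, drm2 22.2 and cmt3 0 scaled fragments per base there. At its central base drm2 had 30 fragments and cmt3 none (share 100%, 88.4% to 100%). Taking 3 fragments for cmt3 would give 5.05-fold after scaling. That value leaves out the counting error of drm2 and is not a strict lower limit. Another H3 peak in the same run was present in all 3 genotypes. The next was chr2:8816801-8816850, in a cmt3 CHG DMR within the pseudogene AT2G20460, with 15.6, 20.9 and 0 in Col-0, drm2 and cmt3. The third, chr3:18791851-18791900 in a cmt3 CHH DMR within the pseudogene AT3G50625, had 10.2, 23.3 and 0.873.

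The lowest ratios in cmt3 DMR bins were smaller in size. At chr3:11879251-11879300, in a cmt3 CHG DMR within the protein-coding gene AT3G30230, Col-0 had 46.5, drm2 19.6 and cmt3 62.3, a ratio of -1.62. With 26 drm2 and 41 cmt3 fragments over the central base, the drm2 share was 38.8% (27.1% to 51.5%), below the 66.5% of equal coverage. The others were -1.11 at chr1:13325701-13325750 in AT1G35840 and -0.92 at chr5:9895701-9895750 in AT5G27885, both pseudogenes.

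Among bins in DMRs of both mutants, the highest was chr1:10701201-10701250, a drm2 CG and cmt3 CHG and CHH DMR in the pseudogene AT1G30340. Col-0 had 10.4, drm2 29.9 and cmt3 0 there. At the central base there were 39 drm2 fragments and no cmt3 fragment (share 91.0% to 100%). Taking 3 fragments for cmt3 would give 6.56-fold, again without the counting error of drm2. At chr5:9983101-9983150, near the pseudogene AT5G27947, the values were 21.7, 29.1 and 0. At chr2:15791251-15791300, a CHH DMR of both mutants nearest to EXP3 (AT2G37640), which encodes an expansin, a protein that loosens cell walls, they were 12.0, 26.0 and 0. In that bin the mutants share the methylation context but drm2 was above Col-0 and cmt3 had no fragment.

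The lowest of this class, chr2:5009551-5009600 in the noncoding RNA gene AT2G05695, is a CHG DMR of both. Col-0 had 21.8, drm2 12.2 and cmt3 32.1, and the drm2 share at the central base was 42.1% (26.3% to 59.2%, 16 and 22 fragments). Over the run of 21 bins around it, Col-0 averaged 7.32, drm2 2.39 and cmt3 10.1, the lowest ratio of any run at -1.70. It also held the lowest bin outside DMRs, chr2:5009751-5009800, with 22.5, 4.07 and 29.7, a ratio of -2.60. The other low bins in DMRs of both were -1.25 at chr3:11415201-11415250 in AT3G05795, a noncoding RNA gene, and -1.24 at chr2:6549501-6549550 in the pseudogene AT2G15100.

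**Figure D5:**
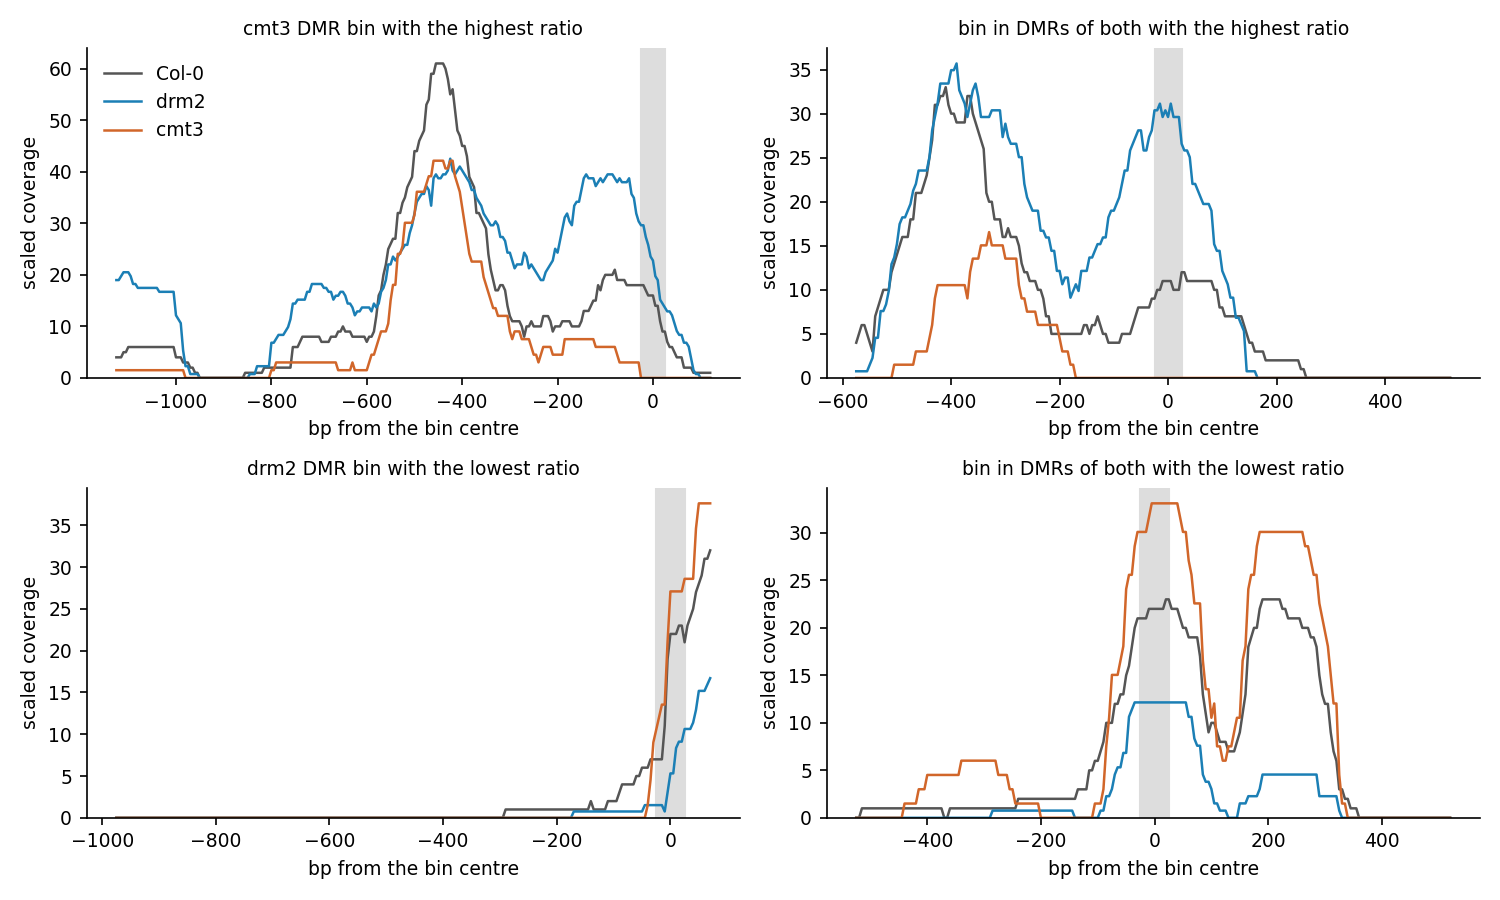
Scaled coverage in fragments per base (y) by distance from the bin centre in bp (x), over the run of shared bases around 4 of the bins described. Grey marks the bin. In the upper panels cmt3 has no fragment over the bin, where drm2 had 22.2 and 29.9, and in the lower panels drm2 is below Col-0 and cmt3 above it.

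In drm2 DMR bins the highest ratio was 3.70 at chr4:6917951-6918000, a drm2 CHG DMR over AT4G11373 and the pseudogene AT4G11375, with 12.1 in Col-0, 22.6 in drm2 and 0.813 in cmt3. The second was 3.65 at chr4:6728301-6728350, a drm2 CG DMR in the pseudogene AT4G10990, with 15.5, 27.4 and 1.26. The third was 2.85 at chr3:1560151-1560200, a drm2 CG DMR over AT3G05410 and the pseudogene AT3G05415. In all of these drm2 was above Col-0.

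The lowest ratio of the drm2 class was -1.91 at chr3:11024201-11024250, a drm2 CHG DMR in AT3G29033, with 16.8 in Col-0, 4.94 in drm2 and 21.3 in cmt3. Its drm2 share was 28.0% (12.1% to 49.4%, 7 and 18 fragments). Next were -1.72 at chr1:16431451-16431500, a CG DMR nearest to UGT80B1 (AT1G43620), which encodes a sterol glucosyltransferase, and -1.68 at chr4:6687101-6687150, a CG DMR nearest to AT4G10880. In all of them drm2 was below Col-0 and cmt3 above it.

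Outside all DMRs, ratios as extreme were also found. At chr1:17681251-17681300, over the pseudogene AT1G47950 and C/VIF1 (AT1G47960), which encodes an inhibitor of invertases, Col-0 had 11.8, drm2 28.1 and cmt3 0. At chr2:6954901-6954950 in the pseudogene AT2G16000 the values were 10.5, 31.0 and 1.50. At chr1:7071651-7071700, nearest to the pseudogene AT1G20390, they were 19.5, 8.96 and 40.4. A large ratio in a single bin was therefore not limited to DMRs. All shared bins lie in windows around DMRs of both mutants, so these bins do not show large ratios far from DMRs.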

How the data were processed

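The deposited H3 tables hold coverage: a signal of whole numbers, 1 row of 1099 consecutive values per window of 1100 bp, with the DMR of 100 bp at its centre and 500 bp of sequence before and after it. The authors combined both libraries of a genotype in each table, per the labels, and no normalization was found in the values. Where windows of a genotype overlapped, their values matched exactly (37831681 repeated positions, 0 mismatches). Bowtie2, Picard, Bismark, methylKit and TAIR10 are named in the submitters' processing notes, without roles. DMR calling and fragment filters are not given in the sources used here.

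From 12 tables, coverage was averaged in 50 bp bins inside the shared bases. Each mutant was divided by the ratio of its summed coverage to that of Col-0 over bins in no drm2 or cmt3 DMR. Ratios used a pseudocount of 1 and bins with a Col-0 mean of at least 5, and understate changes of poorly covered bins. A bin belongs to a class by the drm2 and cmt3 DMRs it lies in. Differences at equal Col-0 coverage are class medians less the medians of bins outside DMRs, within the ranges 5 to 10, 10 to 20, 20 to 40 and 40 or more, weighted by the bins of the class. These ranges, and the splits by distance, place and run, were chosen after seeing the data. All members and lists were chosen with earlier results of these data known.

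Named bins were the 3 highest and 3 lowest ratios of each DMR class and the 2 highest and 2 lowest outside DMRs, with 1 bin at most per run, among bins with at least 10 fragments per base in Col-0 and in the mean of the scaled mutants. Gene names and kinds are from a RefSeq table of TAIR10.1, whose coordinates are not printed. Checked against the files, mean Col-0 coverage (values capped at 50) was 2.13 at 51 to 100 bp outside and 4.70 at 51 to 100 bp inside the ends of protein-coding genes, and 4.20 and 4.21 after a shift of 5000 bp. The summaries were run on simulated data with independent counts in each bin. The simulation had no counting error in Col-0 and no fragments shared by neighbouring bins, so it does not test the effect of either. Sequences and the met1 tables' coverage are not used here. Python 3.11.15, numpy 2.4.6, pandas 2.3.3, scipy 1.17.1 and matplotlib 3.10.9 were used.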

Additional observations from a re-analysis of the deposited data

How the results depend on the processing

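No paired analysis was possible because the tables combine both replicates of a genotype in 1 profile, and leaving out each replicate could not be run for the same reason. Of 194 recomputed medians and differences between classes, 156 moved by less than the SD of the value over the 5 chromosomes. The 194 include settings that leave out 1 chromosome. Such settings by construction move a value little against that SD, so the count overstates how stable the values are. Many of the others came with another minimum on coverage, since the ratio depends on it. With a minimum Col-0 coverage of 10, the median ratio of drm2 to cmt3 was 0.51 in cmt3 DMR bins, 0.35 in cmt3 CHG DMR bins, -0.35 in drm2 DMR bins, -0.22 in bins in DMRs of both and -0.16 outside DMRs. With a minimum of 20 these were -0.10, -0.15, -0.42, -0.32 and -0.30, the first 2 with a changed sign, and drm2 against Col-0 in cmt3 DMR bins turned to -0.22. The differences at equal Col-0 coverage, with a minimum of 20, were 0.32 for cmt3 DMR bins, 0.26 for cmt3 CHG DMR bins and 0.0037 for bins in DMRs of both, and with a minimum of 10 0.71 for cmt3 DMR bins. Without a minimum the medians were 0.68 in cmt3 DMR bins, -0.19 in drm2 DMR bins and 0 in DMRs of both. A minimum of 5 on the mutants gave -0.0331 in DMRs of both and turned cmt3 against Col-0 outside DMRs to 0.0477. A pseudocount of 5 gave 0.66 and 0.51 at equal Col-0 coverage for cmt3 DMR bins, and 0.60 and 0.47 for cmt3 CHG DMR bins. Means over bins were 0.24 in DMRs of both, a changed sign, 0.24 outside DMRs and -0.13 in drm2 DMR bins. Summed coverage gave 0.50 in cmt3 DMR bins, 0.40 in cmt3 CHG DMR bins and -0.0565 outside DMRs. With 1 value per run, the medians were 0.77 in cmt3 DMR bins, -0.21 in drm2 DMR bins and 0.17 outside. Median-ratio scaling gave -0.35 in drm2 DMR bins, -0.15 in DMRs of both and -0.0197 outside, and DMRs of both had -0.0448 with scaling over all bins and -0.14 without met1 DMRs. Bins of 100 bp gave -0.04 in DMRs of both and 0.69 for cmt3 DMR bins at equal Col-0 coverage. Over every setting run, that last difference stayed between 0.32 and 0.83, and it was 0.72 to 0.79 without each chromosome in turn. Depth limits the cmt3 profile most, where a bin of 5 Col-0 fragments per base has few cmt3 fragments.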

Other observations

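Bins without a fragment of 1 mutant were uneven between the mutants. With at least 10 fragments per base in Col-0 and in the scaled other mutant, 25 bins in 12 runs held no cmt3 fragment. Of these, 9 were cmt3 DMR bins, 9 lay in DMRs of both, 7 outside DMRs and 0 in drm2 DMRs only. Under the same minimum a single bin, outside DMRs, held no drm2 fragment. The classes differ in size. With at least 10 fragments in Col-0 and on average over the mutants, 3623 bins lay outside DMRs. In cmt3 DMRs only there were 417, in DMRs of both 928 and in drm2 DMRs only 1655. That filter is not the same, so no share is given. The cmt3 profile is also the shallower one, and the part of depth in the count of bins without a fragment was not tested.

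The runs with the most extreme ratios were picked after their values were seen. The highest, at chr1:16491051-16492200 over the pseudogene AT1G43715, had 7.18 fragments per base in Col-0, 8.33 in drm2 and 0.700 in cmt3, a log2 ratio of 2.46 over 23 bins. It held 7 cmt3 and 4 drm2 DMR bins. The run at chr2:2509951-2510800 over the pseudogene AT2G06350 had 7.43, 14.7 and 2.95, and that at chr3:10918651-10919750 over the pseudogene AT3G28915 had 14.2, 18.2 and 4.36. At the low end, after the run in AT2G05695, stood chr3:556951-558000 over the protein-coding gene AT3G02610, with 12.5 in Col-0, 4.78 in drm2 and 11.0 in cmt3, a ratio of -1.05.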
